A study of Rattus norvegicus with 6 samples.

Results

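This account covers 76 rat genes that encode receptors for glutamate, GABA, glycine and the amine transmitters serotonin, dopamine, noradrenaline, acetylcholine and histamine. They are the single gene symbols of the array annotation that start with the family prefixes of these receptors (Gria, Grin, Grik, Grid, Grm, Gabr, Gabbr, Glra, Glrb, Htr, Drd, Adra, Adrb, Chrm and Hrh), leaving out Adrb1, Adra1b and Grina. They were chosen by gene name, with earlier results of these data known, and make up 76 of 12167 genes with a probe. The counts below do not cover Adrb1 and Adra1b. Each is represented by its brightest probe, and 29 of them had several probes, 115 in all.

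The arrays carried RNA of adult male Sprague-Dawley rats described as normal. The dissected structures were the pineal gland (2 arrays), and with 1 array each, from a pool of 2, the subcommissural organ, the subfornical organ and ependyma lining the third ventricle, all cut out with an infrared laser. A pool of total brain (1 array) served as the reference. The ependyma was taken away from the subcommissural and subfornical organs, and no marker gene is named for the choice of any region. Whether both pineal gland arrays stand for different animals is not said. The p-values below therefore rest on the spread between those 2 arrays alone, pooled over all measured genes, which may be technical. The same spread was used for every gene, however far apart its own 2 pineal gland values lay.

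Ionotropic receptors are channels built of several subunits that open when the transmitter binds, and carry fast excitation (AMPA, NMDA and kainate receptors for glutamate) or fast inhibition (GABA-A and glycine receptors). Metabotropic glutamate receptors, GABA-B receptors and nearly all amine receptors act more slowly through G proteins. The pineal gland secretes melatonin under noradrenergic nerve input, the subcommissural organ is a secretory ependymal gland, and the subfornical organ contains neurons that sense blood-borne signals of fluid balance. Ordinary ependyma is a ciliated lining of the ventricle.

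Intensities are on the linear scale of the deposited table, whose array medians lay between 1.04 and 1.07. In each comparison a gene was taken as measured if the higher side reached 1.05, the pooled median of all probes. Where the lower side was under 1.05, the fold given for a gene was computed against 1.05 and is written as "at least". Counts of genes at least 4-fold different used values floored at 0.142 instead, and are also given with sides under 1.05 set to 1.05. Limma takes its spread from the pineal gland pair and assumes it for the lone arrays, so its p-values carry no spread of the other tissues. Where either side of a called gene was under 1.05, the call is given without a p-value. Both pineal gland arrays entered as their mean log2. Levels of single genes are compared between tissues for 1 probe at a time, never between genes. The sums given for cell type markers add the probes of several genes, and bright probes weigh most in them. In dissected tissue, fewer cells of a type and less RNA per cell cannot be told apart.

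The promoters of 4 members are shown first because their transcripts had unlike patterns within 2 subunit families: Grin1 and Grin2c of the NMDA receptor, and Gabrb1 and Gabrb2 of the GABA-A receptor. They were picked after the values were seen. Each run is 300 bases of the RefSeq sequence on build GRCr8, from 250 bases before to 50 bases after the annotated start, 5′ to 3′ on the strand of the gene. Grin1 lies at chr3:28528705-28529004 (minus strand), Grin2c at chr10:101005089-101005388 (minus), Gabrb1 at chr14:36902844-36903143 (minus) and Gabrb2 at chr10:27439543-27439842 (plus). Capitals mark the motifs named in the next paragraph, on either strand.
Grin1: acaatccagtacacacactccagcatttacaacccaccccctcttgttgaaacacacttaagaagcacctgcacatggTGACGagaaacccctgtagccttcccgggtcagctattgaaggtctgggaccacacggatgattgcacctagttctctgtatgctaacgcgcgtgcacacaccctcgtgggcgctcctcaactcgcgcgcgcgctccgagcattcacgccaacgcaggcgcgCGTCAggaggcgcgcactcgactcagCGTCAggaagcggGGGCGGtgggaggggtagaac
Grin2c: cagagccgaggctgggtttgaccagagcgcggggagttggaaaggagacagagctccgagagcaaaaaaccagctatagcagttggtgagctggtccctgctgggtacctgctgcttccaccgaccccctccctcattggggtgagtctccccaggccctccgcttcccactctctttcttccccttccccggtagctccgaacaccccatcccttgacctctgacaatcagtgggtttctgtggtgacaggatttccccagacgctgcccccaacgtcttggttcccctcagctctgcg
Gabrb1: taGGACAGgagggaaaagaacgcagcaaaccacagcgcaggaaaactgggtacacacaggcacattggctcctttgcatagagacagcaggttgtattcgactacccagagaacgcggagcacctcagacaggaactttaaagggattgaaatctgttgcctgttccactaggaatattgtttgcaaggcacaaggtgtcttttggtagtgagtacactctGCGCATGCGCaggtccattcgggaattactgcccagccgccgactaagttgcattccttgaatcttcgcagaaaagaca
Gabrb2: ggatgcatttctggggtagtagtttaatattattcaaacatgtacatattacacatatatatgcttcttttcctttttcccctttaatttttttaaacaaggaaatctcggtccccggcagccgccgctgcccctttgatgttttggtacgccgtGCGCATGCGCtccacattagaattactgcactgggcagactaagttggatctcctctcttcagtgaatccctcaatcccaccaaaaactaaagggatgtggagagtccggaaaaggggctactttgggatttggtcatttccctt

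The letters searched on both strands were TTCAGCACC, its core CAGCACC and GGACAG (parts of the RE1 element bound by the repressor REST), GGGCGG (the GC box), TGACGTCA and its core TGACG (the cAMP response element), TAATCC (bound by the pineal and retinal factor CRX), TATAAA (the TATA box) and GCATGCGC (part of the palindrome bound by NRF1). The last of these was added after the printed sequences had been read, so its matches in both GABA-A promoters are no independent observation. The longer run GCGCATGCGC, which the overlapping matches make up, also came from the printed sequences and was searched before the shorter letters. It was in 2 of 57 member promoters (3.51%), against 0.852% of all promoters. These 2 are the printed Gabrb1 and Gabrb2, so the share is no independent observation either. The Grin1 run held 3 matches to TGACG and 1 GC box, the Gabrb1 run 1 match to GGACAG, and the Grin2c run none of the 9. The Gabrb1 and Gabrb2 runs each held 2 matches to GCATGCGC, 1 on each strand, that overlapped by 6 bases. No other marked matches overlapped. TTCAGCACC contains CAGCACC, and TGACGTCA contains TGACG.

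Promoters of this length were found for 57 members, and each member entered with a single promoter. The set of all promoters was not limited to a single promoter per gene or to genes with a probe, so the shares below are not like for like. Of these, 49.1% held the GC box, against 33.1% of all 33469 promoters in the table, and 29.8% held GGACAG, against 21.7%. The core TGACG was in 17.5% of them, against 21.2%, and CAGCACC in 7.02%, against 6.78%. TAATCC was in 10.5%, against 7.17%, TATAAA in 5.26%, against 14.2%, and GCATGCGC in 3.51%, against 2.47%. No member promoter held TTCAGCACC or TGACGTCA, which were in 0.356% and 1.83% of all promoters. The median GC content was 59.7% in the members' promoters and 51.7% in all promoters. A match is a run of letters and was not tested as a binding site.

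Of the 76 receptor genes, 39 reached an intensity of 1.05 in at least 1 tissue, and the other 37 in none. On the single arrays and the pineal mean, 16 members reached that level in the pineal gland, 22 in the subcommissural organ, 25 in the subfornical organ, 26 in the ependyma and 33 in total brain. The 37 members below it lay between -0.237 and 1.10 on single arrays, so no order of tissues is read from them. They include Gria1, Grin2a, Gabra6, Htr2a, Chrm1 and Drd4. Total brain gave no signal above that level for these either, as it did not for the neuronal vesicle gene Snap25 (0.570). A low probe therefore does not show that a receptor is absent. Drd4, known for its night-time expression in the rat pineal gland, had 0.700 and 0.581 there and 0.0608 in total brain, and the labels give no time of day.

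Of the 39 members measured somewhere, 29 (74.4%) had their highest level in total brain, which was the highest tissue for 33.9% of the 9889 genes measured somewhere. The heat map of the 39 genes shows this as a bright right-hand column.

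**Figure D1:**
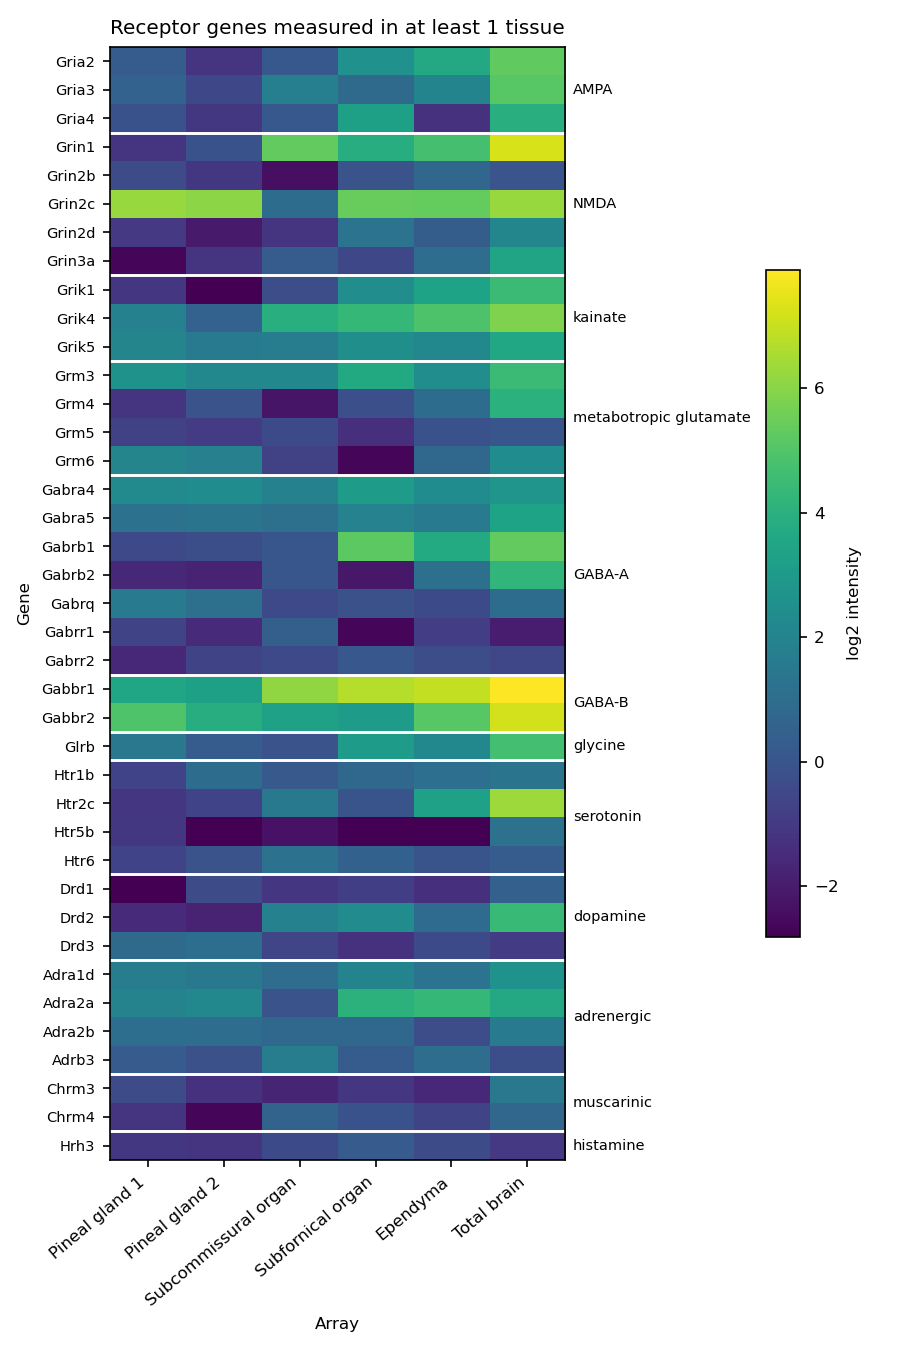
Log2 intensity of the 39 receptor genes that reached an intensity of 1.05 in at least 1 tissue (rows, grouped by receptor family) on each of the 6 arrays (columns), with values under 0.142 raised to it. Colours are to be read along a row, since probes differ in brightness; for 29 genes the highest tissue is total brain.

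In the pineal gland, 34 members were measured against total brain. On values floored at 0.142, at least 4-fold lower were 22 of them and none was 4-fold higher, while 14.4% of the 9077 measured genes were 4-fold lower and 6.83% were 4-fold higher. With limma, 22 members were called lower, where 16.3% of all measured genes were called, and 1 was called higher, where 7.72% were. In the subcommissural organ, 20 of 35 measured members were 4-fold lower than in total brain (14.9% of all measured genes) and 1 was 4-fold higher (8.76%). In the subfornical organ 13 of 36 were 4-fold lower (9.76%) and none higher (7.23%), and in the ependyma 13 of 35 were 4-fold lower (9.51%) and none higher (7.47%). With sides under 1.05 set to 1.05, the members 4-fold lower were 18 in the pineal gland (11.4% of all measured genes), 18 in the subcommissural organ (11.4%), 11 in the subfornical organ (7.22%) and 11 in the ependyma (6.63%), and none was 4-fold higher.

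A gene that is measured only through total brain is likely to be lower elsewhere, so the counts were also taken with no filter. Over all 76 members, 23 were then 4-fold lower in the pineal gland (11.0% of all genes), 21 in the subcommissural organ (12.1%), 17 in the subfornical organ (8.14%) and 13 in the ependyma (7.96%). At least 4-fold higher were 2 in the pineal gland (5.74%), 2 in the subcommissural organ (7.78%), 3 in the subfornical organ (6.77%) and 3 in the ependyma (6.65%). The median log2 difference of the measured members from total brain was -2.68 in the pineal gland, -2.54 in the subcommissural organ, -1.25 in the subfornical organ and -1.63 in the ependyma. Over all measured genes it was -0.45, -0.29, -0.20 and -0.41 in that order. With sides under 1.05 set to 1.05, the members' medians were -2.05, -2.04, -1.0 and -1.44, and those of all measured genes -0.39, -0.25, -0.17 and -0.36. The 4 comparisons share the single total brain array, so they are no separate evidence.

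**Figure D2:**
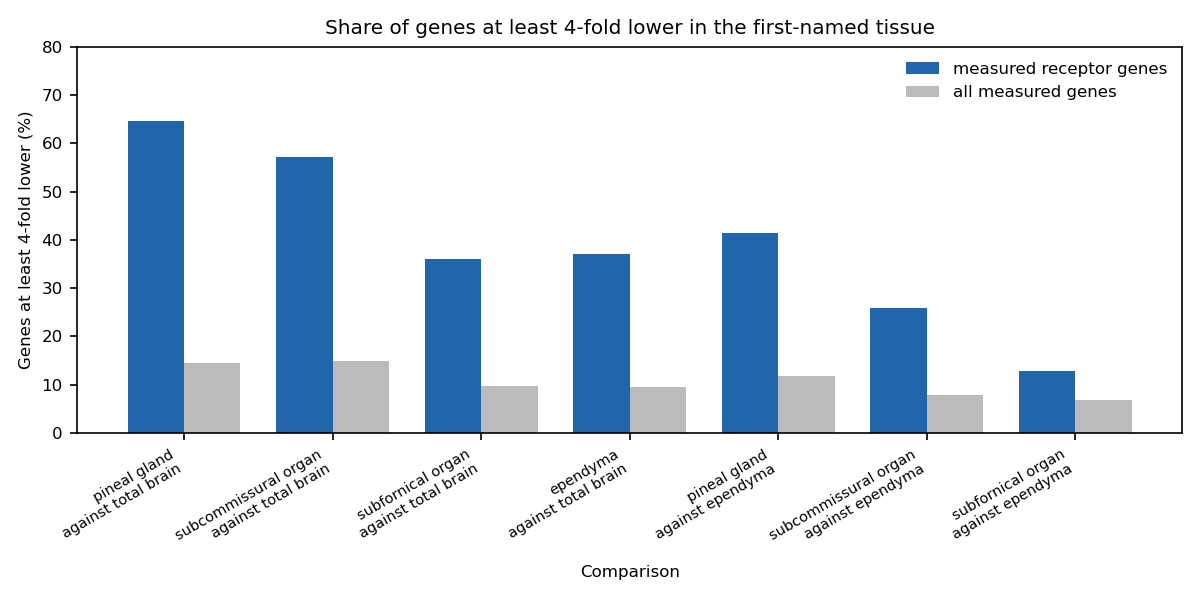
Share of measured genes at least 4-fold lower in the first-named tissue (%), for receptor genes (blue) and all genes (grey), in each of the 7 comparisons. The receptor share runs from 64.7% in pineal gland against total brain to 12.9% in subfornical organ against ependyma, and the share of all genes from 14.9% to 6.75%.

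Markers of several cell types also differed between the tissues, and not all in the direction of the receptor genes. Of 12 neuronal markers, 8 had a probe, and their summed intensity was 215 and 149 in the pineal gland, 28.1 in the subcommissural organ, 130.4 in the subfornical organ, 174 in the ependyma and 963 in total brain. At or above 1.05 were 3 of these 8 markers on each pineal gland array, 3 in the subcommissural organ, 4 in the subfornical organ, 5 in the ependyma and 6 in total brain. Eno2 alone made up 205 and 142 of the pineal gland sums, while Thy1 had 7.12 and 4.30 there and 509 in total brain, and Stmn2 had 1.01 and 0.600 there and 58.1 in total brain. None was listed at 0, but Snap25 and Nefh stayed under 1 on each array. Of the 6 measured neuronal markers, 5 were 4-fold lower than in total brain in the pineal gland and 6 in each other structure. With sides under 1.05 set to 1.05, these were 4 and 5. For the neuronal, astrocyte and oligodendrocyte lists, the share of all measured genes was 14.4% in the pineal gland and 14.9% in the subcommissural organ. It was 9.76% in the subfornical organ and 9.51% in the ependyma. The 10 astrocyte markers summed to 234 and 98.1 in the pineal gland, 263 in the subcommissural organ, 1179 in the subfornical organ, 800.0 in the ependyma and 1023 in total brain. Of those measured, 7 of 8 were 4-fold lower in the pineal gland, 4 of 8 in the subcommissural organ and none in the subfornical organ or the ependyma. The 9 oligodendrocyte markers with a probe summed to 56.5 and 34.6 in the pineal gland, 197 in the subcommissural organ, 1337 in the subfornical organ, 255 in the ependyma and 1278 in total brain. Of 8 measured, 8 were 4-fold lower in the pineal gland, 7 in the subcommissural organ, 8 in the ependyma and none in the subfornical organ. The 8 pinealocyte markers summed to 1954 and 1602 in the pineal gland, against 27.5 in total brain. The 7 motile cilia markers with a probe summed to 1192 in the subcommissural organ and 1342 in the ependyma, against 52.8 in total brain. The part of these mixtures in the receptor differences was not tested.

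The AMPA receptor genes were lower in most dissected tissue. Gria2, the subunit that limits calcium entry through the channel, had 1.23 and 0.448 in the pineal gland, 1.10 in the subcommissural organ, 6.03 in the subfornical organ, 12.5 in the ependyma and 38.8 in total brain. It was at least 37.0-fold lower in the pineal gland (called by limma), 35.4-fold lower in the subcommissural organ and 6.43-fold lower in the subfornical organ. In the ependyma it was 3.10-fold lower, short of 4-fold. Gria3 had 1.47 and 0.709 in the pineal gland, 3.47 in the subcommissural organ, 1.83 in the subfornical organ, 4.10 in the ependyma and 34.5 in total brain, which stood above the rest.

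Gria4 set the subfornical organ apart from the other structures on its brightest probe. It had 0.916 and 0.478 in the pineal gland, 1.09 in the subcommissural organ, 9.65 in the subfornical organ, 0.405 in the ependyma and 14.9 in total brain. A second probe of Gria4 read 2.58 in the subfornical organ, 3.47 in the ependyma and 8.12 in total brain, and so placed the subfornical organ 1.34-fold below the ependyma. The other 2 probes placed it above the ependyma, as the brightest one did, with 2.14 and 1.36 in the subfornical organ and 0.359 and 0.206 in the ependyma. The subfornical organ was thus higher on 3 of 4 probes.

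NMDA receptors need the subunit encoded by Grin1, with a second subunit such as that of Grin2c setting their properties. Grin1 had 0.435 and 0.931 in the pineal gland, 39.7 in the subcommissural organ, 14.7 in the subfornical organ, 26.4 in the ependyma and 151 in total brain. Both pineal gland arrays were under 1.05, and each other tissue was above it. The pineal gland was at least 144-fold lower than total brain (called by limma), the subfornical organ 10.3-fold lower, the ependyma 5.73-fold lower and the subcommissural organ 3.80-fold lower. The other 2 probes gave the same order of tissues, with 60.6 and 31.7 in total brain and no more than 1.19 in the pineal gland, which was 56.3-fold and at least 30.2-fold lower on them.

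Grin2c ran otherwise. It had 75.1 and 65.1 in the pineal gland, 1.94 in the subcommissural organ, 42.5 in the subfornical organ, 40.8 in the ependyma and 75.3 in total brain. Only the subcommissural organ was low, 38.7-fold under total brain, while the pineal gland differed from total brain by a log2 of -0.11 (limma adjusted p = 0.94). The second probe of Grin2c read 10.6 and 7.96 in the pineal gland, -0.0636 in the subcommissural organ, 5.19 in the subfornical organ, 5.55 in the ependyma and 11.7 in total brain. In the gland Grin2c was thus 1.08-fold under its total brain level, and Grin1 at least 144-fold under its own.

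Grin3a, a modulatory subunit, was at least 10.3-fold lower in the pineal gland and in the subfornical organ, 8.92-fold lower in the subcommissural organ and 5.37-fold lower in the ependyma, against 10.9 in total brain. Its second probe was at least 3.57-fold lower in the pineal gland, the subcommissural organ and the subfornical organ, but had 3.13 in the ependyma and 3.75 in total brain, which is 1.20-fold and short of 4-fold. Grin2d had 4.31 in total brain, 2.43 in the subfornical organ, and under 1.05 in the pineal gland and the subcommissural organ. Grin2b reached 1.05 only in the ependyma (1.65, against 0.999 in total brain).

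Among kainate receptor genes, Grik4 had 3.72 and 1.45 in the pineal gland, 15.3 in the subcommissural organ, 20.2 in the subfornical organ, 30.2 in the ependyma and 57.4 in total brain. The gland was 24.7-fold lower than total brain (limma adjusted p = 5.5e-09), and the other structures were 1.90-fold to 3.75-fold lower. On its second probe the subfornical organ was 5.21-fold lower. Grik1 was at least 21.1-fold lower in the pineal gland and the subcommissural organ, 4.10-fold lower in the subfornical organ and 2.07-fold lower in the ependyma, against 22.2 in total brain. Grik5 did not reach 4-fold in any structure, with 3.17 to 5.82 in the dissected tissues and 12.3 in total brain.

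Of the metabotropic glutamate receptors, which signal through G proteins, Grm3 was measured in each tissue. It couples to inhibition of cAMP and has been described in rat pinealocytes. It had 6.42 and 4.53 in the pineal gland, 4.57 in the subcommissural organ, 13.1 in the subfornical organ, 5.43 in the ependyma and 22.5 in total brain. The pineal gland was 4.16-fold lower than total brain (limma adjusted p = 0.023), and the subfornical organ 1.71-fold lower. The second probe of Grm3 read 1.64 and 0.686 in the pineal gland, 0.359 in the subcommissural organ, 15.0 in the subfornical organ, 2.61 in the ependyma and 25.1 in total brain. On it the pineal gland was 23.7-fold lower than total brain, the subcommissural organ at least 23.9-fold, the ependyma 9.60-fold and the subfornical organ 1.67-fold lower. Both probes thus put the subfornical organ nearest to total brain, and the size of the other differences depends on the probe. Grm4 had 0.432 and 0.949 in the pineal gland, 0.218 in the subcommissural organ, 0.862 in the subfornical organ, 1.99 in the ependyma and 16.1 in total brain. Grm6, known from retinal ON bipolar cells, had 4.12 and 3.61 in the pineal gland, 0.608 in the subcommissural organ, 0.156 in the subfornical organ, 1.72 in the ependyma and 5.28 in total brain. Its level in the gland was near that of total brain (log2 -0.45, limma adjusted p = 0.73).

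**Figure D3:**
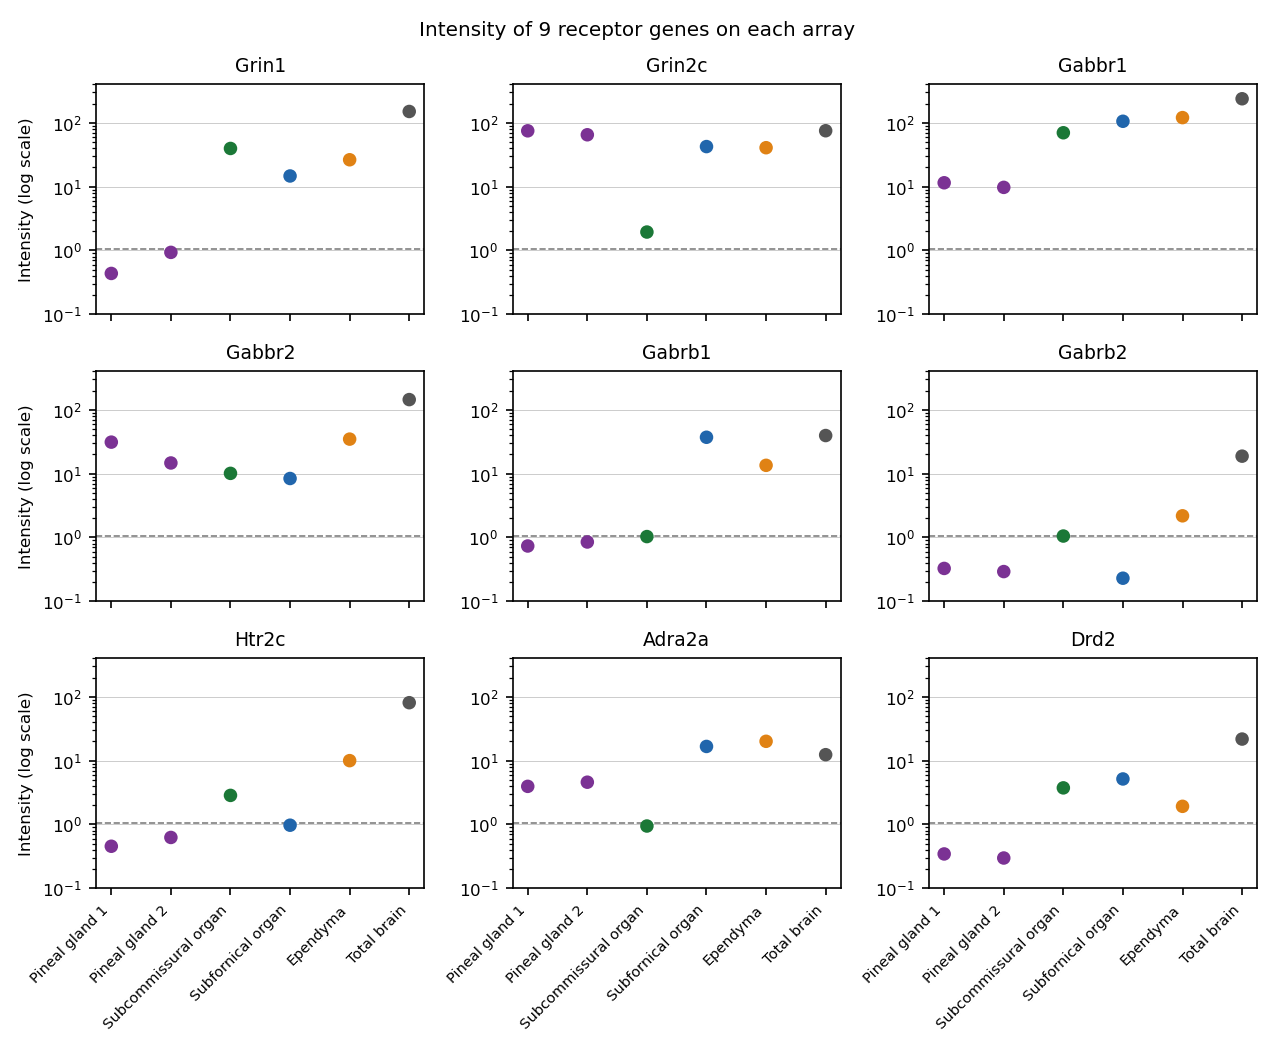
Intensity (log scale) of 9 receptor genes on each array, 1 point per array, with a dashed line at 1.05. Grin1 is under the line on both pineal gland arrays, Grin2c is low in the subcommissural organ alone (1.94), and Gabrb1 is near 1 in the pineal gland and the subcommissural organ but 37.2 in the subfornical organ.

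The GABA-A receptor is a pentameric chloride channel, usually with alpha and beta chains. Gabrb1, a beta chain, had 0.733 and 0.847 in the pineal gland, 1.03 in the subcommissural organ, 37.2 in the subfornical organ, 13.5 in the ependyma and 39.6 in total brain. The pineal gland (called by limma) and the subcommissural organ were each at least 37.7-fold lower than total brain, while the subfornical organ was 1.07-fold lower. Gabrb2, another beta chain, had 0.326 and 0.291 in the pineal gland, 1.05 in the subcommissural organ, 0.229 in the subfornical organ, 2.18 in the ependyma and 18.8 in total brain. In the subfornical organ, then, Gabrb1 was near its total brain level and Gabrb2 at least 17.9-fold under its own. The second probes of both genes stayed under 1.05 on each array and give no second reading.

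Gabra4, an alpha chain, differed little between tissues, with 5.0 and 5.2 in the pineal gland, 3.76 in the subcommissural organ, 8.53 in the subfornical organ, 5.19 in the ependyma and 6.77 in total brain. Gabra5 had 2.35 and 2.49 in the pineal gland, 2.22 in the subcommissural organ, 3.77 in the subfornical organ, 2.98 in the ependyma and 10.6 in total brain. Gabrq, the theta chain, was highest in the pineal gland (3.12 and 2.18, against 1.99 in total brain), a difference that limma did not call (log2 0.39, adjusted p = 0.77). Gabrr1, a rho chain, was the 1 measured member at least 4-fold higher in a structure than in total brain. It had 1.34 in the subcommissural organ and 0.261 in total brain, a fold of at least 1.27 once total brain was set to 1.05.

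GABA-B receptors are obligate dimers of the products of Gabbr1 and Gabbr2, and act through G proteins. Gabbr1 had 11.5 and 9.74 in the pineal gland, 70.0 in the subcommissural organ, 106 in the subfornical organ, 121 in the ependyma and 239 in total brain. The gland was 22.6-fold lower than total brain (limma adjusted p = 1.5e-08), and the other structures 1.97-fold to 3.41-fold lower. Gabbr2 had 31.2 and 14.7 in the pineal gland, 10.1 in the subcommissural organ, 8.39 in the subfornical organ, 34.8 in the ependyma and 145 in total brain. It was 17.3-fold lower in the subfornical organ, 14.4-fold lower in the subcommissural organ and 6.77-fold lower in the pineal gland (limma adjusted p = 0.0011). The partner genes of the dimer therefore had their lowest levels in different structures. The second probe of Gabbr1 read 2.51 and 2.97 in the pineal gland, 6.15 in the subcommissural organ, 33.6 in the subfornical organ, 17.6 in the ependyma and 95.2 in total brain. On it the pineal gland was 34.9-fold lower than total brain, the subcommissural organ 15.5-fold, the ependyma 5.40-fold and the subfornical organ 2.83-fold lower. On another probe, with 17.8 in total brain, the 4 structures were 7.13-fold to 13.1-fold lower, and on the last one, with 1.77 there, the subcommissural and subfornical organs were 1.13-fold and 1.10-fold lower. The brightest probe therefore gave smaller differences than the next 2 for the 3 structures other than the pineal gland.

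Glrb, the beta chain of the glycine receptor, had 2.74 and 1.25 in the pineal gland, 0.958 in the subcommissural organ, 8.47 in the subfornical organ, 4.58 in the ependyma and 26.2 in total brain. It was 14.2-fold lower in the pineal gland (limma adjusted p = 2.2e-06) and at least 24.9-fold lower in the subcommissural organ. The alpha chain genes Glra1, Glra2 and Glra3 did not reach 1.05 on any array.

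Of 13 serotonin receptor genes, 4 were measured. Htr2c, known for its strong expression in the choroid plexus, had 0.454 and 0.624 in the pineal gland, 2.85 in the subcommissural organ, 0.971 in the subfornical organ, 10.0 in the ependyma and 81.1 in total brain on its brightest probe. On that probe it was at least 77.2-fold lower in the pineal gland (called by limma) and in the subfornical organ. A second measured probe was nearly flat, between 2.78 and 4.51 on the 6 arrays, and did not show these differences. Another read 1.31 in total brain and under 1.05 in each structure. Htr5b had 2.35 in total brain and no more than 0.480 elsewhere. Htr1b had 0.626 and 1.98 in the pineal gland, 1.13 in the subcommissural organ, 1.77 in the subfornical organ, 2.14 in the ependyma and 2.49 in total brain, and its pineal gland arrays lay furthest apart among the 16 members at or above 1.05 in the gland. Htr6 was highest in the subcommissural organ (2.33, against 1.23 in total brain).

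Among dopamine receptors, Drd2, which inhibits adenylyl cyclase, had 0.344 and 0.297 in the pineal gland, 3.74 in the subcommissural organ, 5.16 in the subfornical organ, 1.92 in the ependyma and 21.8 in total brain. It was at least 20.8-fold lower in the pineal gland (called by limma), 11.4-fold lower in the ependyma, 5.83-fold lower in the subcommissural organ and 4.23-fold lower in the subfornical organ. Drd3 had 1.84 and 2.06 in the pineal gland, 0.674 in the subcommissural organ, 0.409 in the subfornical organ, 0.744 in the ependyma and 0.515 in total brain. It was the 1 member that limma called higher in the gland than in total brain (log2 1.92, adjusted p = 0.037), by at least 1.85-fold and short of 4-fold. Drd1 had 1.40 in total brain and less than 1.05 elsewhere.

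Of the 5 adrenergic genes in the set, which leaves out Adrb1 and Adra1b, 4 were measured in at least 1 tissue. Adra2a, an inhibitory receptor for noradrenaline, had 3.95 and 4.59 in the pineal gland, 0.943 in the subcommissural organ, 16.7 in the subfornical organ, 20.1 in the ependyma and 12.4 in total brain. The subcommissural organ was at least 11.8-fold lower than total brain, whereas the subfornical organ and the ependyma were 1.34-fold and 1.62-fold higher. In the pineal gland it was 2.92-fold lower, which limma did not call (adjusted p = 0.11). Adra1d and Adra2b differed from total brain by less than 4-fold in each structure on their brightest probes, and a second probe of Adra1d read 2.55 in total brain and under 1.05 in each structure. Adrb3 had 1.19 and 0.888 in the pineal gland, 3.35 in the subcommissural organ, 1.23 in the subfornical organ, 2.04 in the ependyma and 0.841 in total brain. Its second probe ran the other way, with 0.266 in the subcommissural organ and 1.18 in total brain.

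Of the muscarinic receptors, Chrm3, which activates phospholipase C, had 2.76 in total brain and no more than 0.790 in any structure. Chrm4 had 1.50 in the subcommissural organ and 1.63 in total brain, and 0.448 and 0.159 in the pineal gland. The histamine autoreceptor gene Hrh3 reached 1.05 in the subfornical organ alone (1.20, against 0.482 in total brain). Hrh1, Chrm1, Chrm2 and the delta receptor gene Grid1 reached it in no tissue.

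**Figure D4:**
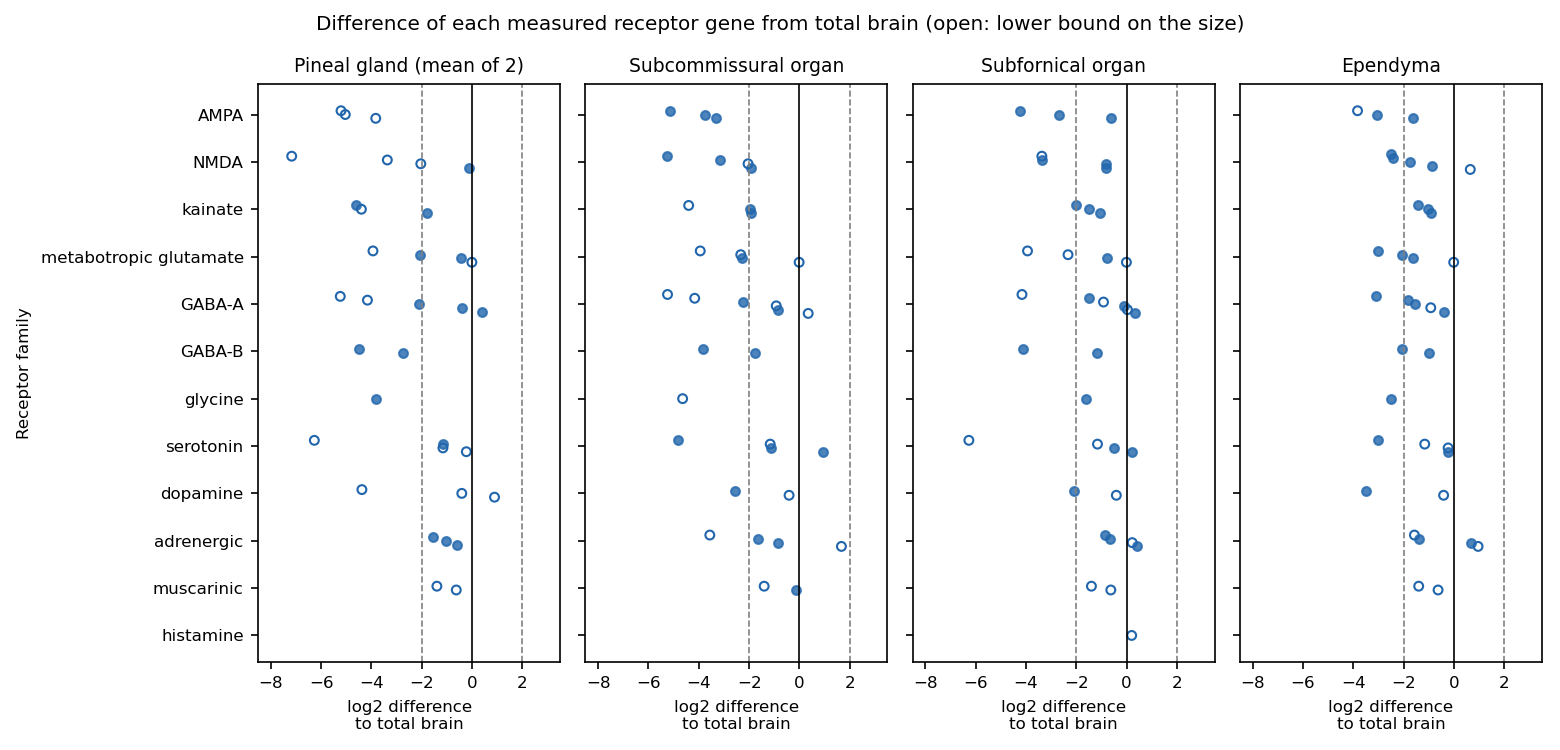
Log2 difference from total brain of each measured receptor gene (1 point each), by receptor family (rows) in the pineal gland (mean of 2 arrays) and the other 3 dissected tissues. Sides under 1.05 were set to 1.05, and open points mark these genes, whose difference is at least as large as drawn. Dashed lines mark 4-fold, and points lie mostly left of 0.

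Near the 4-fold threshold, the members just inside on the lower side were Drd1 in the pineal gland (log2 -2.05), Gabra5 in the subcommissural organ (-2.26), Grik1 in the subfornical organ (-2.03) and Grm3 in the ependyma (-2.05). Just outside were Grik5 in the pineal gland (-1.79) and in the subcommissural organ (-1.95), Glrb in the subfornical organ (-1.63) and Adra2b in the ependyma (-1.93). These are values floored at 0.142, and Drd1 was under 1.05 in the gland. On values floored at 0.142, other measured probes of the called members were also 4-fold different from total brain for 11 of 13 probes in the pineal gland. The subcommissural organ had 7 of 8 such probes. In the ependyma this was so for 4 of 8, in the subfornical organ for 3 of 5, and 0 lay on the opposite side. With sides under 1.05 set to 1.05, fewer of these probes reached 4-fold in each structure. The second probe of Grin2d was then at least 1.31-fold lower in the pineal gland and the subcommissural organ. Another probe of Htr2c was at least 1.25-fold lower in the subcommissural organ.

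**Figure D5:**
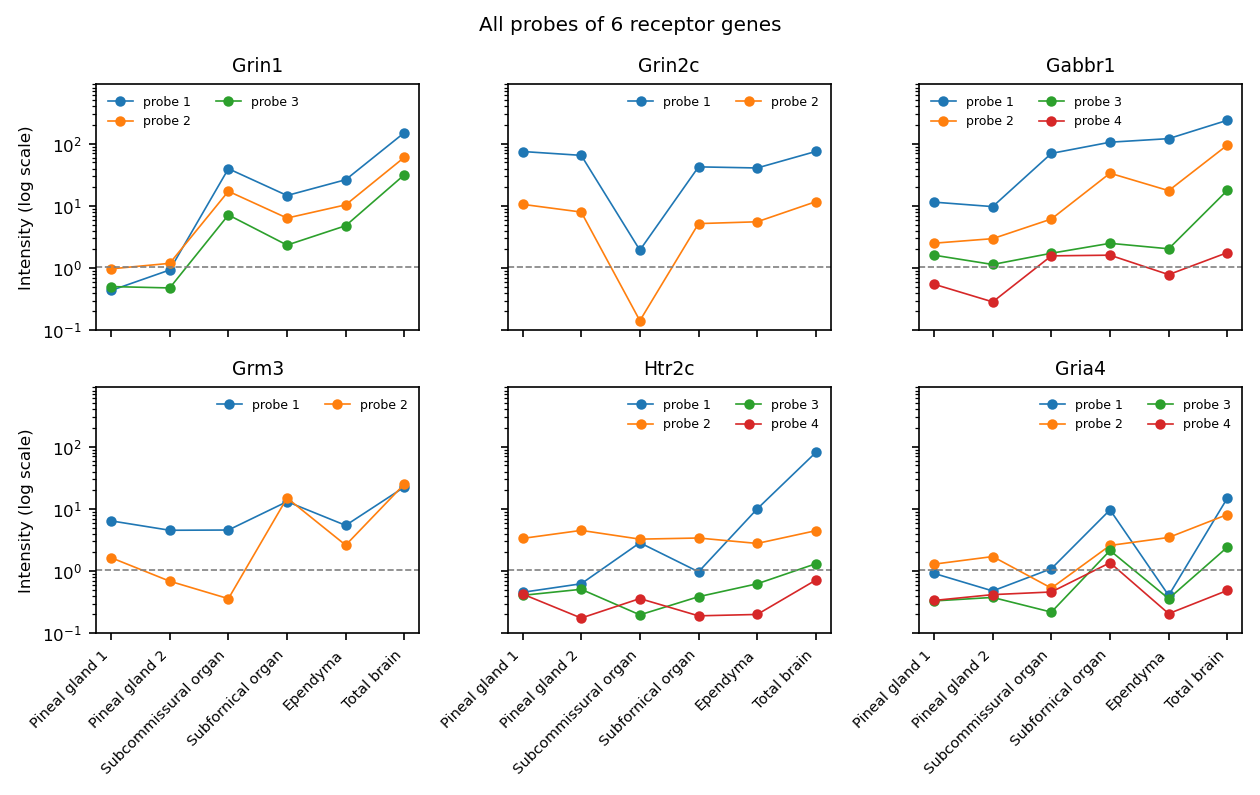
Intensity (log scale) of every probe of 6 receptor genes on each array, with values under 0.142 raised to it and a dashed line at 1.05; lines join the arrays of 1 probe and carry no order. The 3 probes of Grin1 and both of Grin2c run alike, whereas the second probe of Htr2c stays between 2.78 and 4.51 and the second probe of Gria4 differs from its other 3 in the ependyma. The second probe of Grm3 is lower than the first in the pineal gland, the subcommissural organ and the ependyma.

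Set against the ependyma, 12 of 29 measured members were 4-fold lower in the pineal gland (11.7% of all measured genes) and none was 4-fold higher (6.57%). Limma called 13 lower (13.0%) and 0 higher (7.32%), with 15 lower and 1 higher at an unadjusted p under 0.05. Of all 8964 measured genes, 2527 were under that unadjusted p in either direction. Among those that limma called lower in the gland were Grik1 (at least 10.2-fold), Grin1 (at least 25.1-fold), Htr2c on its brightest probe (at least 9.56-fold), Gabrb1 (at least 12.8-fold) and Gria2 (at least 11.9-fold). Gabbr1 was 11.5-fold lower on its brightest probe (limma adjusted p = 1.7e-05), and 6.45-fold and 1.50-fold lower on the next 2. Adra2a was 4.72-fold lower (limma adjusted p = 0.012). Grm3 differed by a log2 of -0.01 on its brightest probe, and was 2.46-fold lower in the gland on the second.

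In the subcommissural organ, 8 of 31 measured members were 4-fold lower than in the ependyma (7.89% of all measured genes) and none was higher (5.0%). Grin2c was 21.0-fold lower, Adra2a at least 19.1-fold, Gabrb1 at least 12.8-fold, Gria2 11.4-fold and Grik1 at least 10.2-fold lower. Grin1 was 1.51-fold higher there. In the subfornical organ, 4 of 31 were 4-fold lower (6.75%) and 1 was higher (6.89%), which is near the share of all genes. The lower members were Grm6, Gabrb2, Gabbr2 and Htr2c, and the higher one was Gria4 on its brightest probe. With sides under 1.05 set to 1.05, the members 4-fold lower than in the ependyma were 8 in the pineal gland (8.80% of all measured genes), 6 in the subcommissural organ (4.88%) and 2 in the subfornical organ (4.26%). With no filter, over all 76 members, 12 were 4-fold lower in the pineal gland (9.01% of all genes) and 0 higher (5.47%). In the subcommissural organ 10 were lower (6.73%) and 1 higher (4.74%), and in the subfornical organ 6 were lower (5.97%) and 2 higher (6.35%). These comparisons have 1 array on each side and no replicate check, and all comparisons with the ependyma share its array.

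Genes that work beside the receptors were also compared with total brain. Of 32 postsynaptic partners of glutamate receptors, 25 had a probe. Of the measured ones, 7 of 17 were 4-fold lower in the pineal gland (14.4% of all measured genes). The subcommissural organ had 6 of 16 lower (14.9%), the subfornical organ also 6 of 16 (9.76%) and the ependyma 3 of 16 (9.51%), and none was higher in any structure. The scaffold gene Dlgap3 had 0.660 and 0.892 in the pineal gland, 2.14 in the subcommissural organ, 5.29 in the subfornical organ, 16.0 in the ependyma and 80.9 in total brain. Camk2a, a kinase of excitatory synapses, had 5.72 in the ependyma, 22.0 in total brain and less than 1.05 in the other structures. Its relative Camk2b was high in the pineal gland (201 and 163) as in total brain (209), against 3.33 in the subcommissural organ and 21.4 in the subfornical organ.

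Of 12 partners of GABA, glycine and GABA-B receptors, 11 had a probe. Of the measured ones, 0 of 9 were 4-fold lower in the pineal gland, against 14.4% of all measured genes. The subcommissural organ had 4 of 10 lower (14.9% of all measured genes). The subfornical organ had 1 of 9, near the 9.76% of all, and the ependyma 5 of 10 (9.51%). At least 4-fold higher was 1 in the subcommissural organ (8.76%), 1 in the ependyma (7.47%) and 0 in the pineal gland (6.83%) and the subfornical organ (7.23%). With sides under 1.05 set to 1.05, 2 lower genes were left in the subcommissural organ (11.4%) and 3 in the ependyma (6.63%), and 0 higher ones. Limma called 0 of the 9 in the pineal gland, where 3 were lower and 0 higher at an unadjusted p under 0.05. Of all 9077 measured genes, 3026 were under it in either direction, so 3 of 9 is near the share of all genes. Slc12a5, the chloride exporter that makes GABA inhibitory in neurons, had 35.3 and 22.1 in the pineal gland, 2.77 in the subcommissural organ, 1.84 in the subfornical organ, 4.81 in the ependyma and 27.8 in total brain. Kctd16, an auxiliary subunit of GABA-B receptors, had 3.39 in the subcommissural organ and 3.90 in the ependyma, with less than 1.05 in the pineal gland, the subfornical organ and total brain.

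Of 19 genes for G proteins, adenylyl cyclases and phospholipases, 16 had a probe and 14 were measured against total brain. At least 4-fold lower were 6 in the pineal gland (14.4% of all measured genes), 3 in the subcommissural organ (14.9%), 3 in the subfornical organ (9.76%) and 1 in the ependyma (9.51%). Only Adcy6 was at least 4-fold higher, in the subcommissural organ (8.76% of all measured genes) and the ependyma (7.47%). In the pineal gland (6.83%) and the subfornical organ (7.23%) 0 were higher. Gnal, the G protein that couples striatal dopamine receptors to cyclase, had 0.856 and 0.416 in the pineal gland, 0.458 in the subcommissural organ, 1.49 in the subfornical organ, 21.4 in the ependyma and 20.5 in total brain. Adcy6, an adenylyl cyclase, had 36.4 and 33.5 in the pineal gland, 174 in the subcommissural organ, 82.2 in the subfornical organ, 131 in the ependyma and 28.7 in total brain. Adcy2 had 424 and 303 in the pineal gland, 6.10 in the subcommissural organ, 108 in the subfornical organ, 70.4 in the ependyma and 165 in total brain.

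Spread could be seen only between the pineal gland arrays. Of the 16 members at or above 1.05 in the gland, 0 differed 4-fold between its arrays, and of all 8007 genes at that level 90 did. With so low a share over all genes, 0 of 16 does not set the members apart. The log2 difference of the members between the arrays had an SD of 0.69, and the widest was that of Htr1b at -1.66 (first minus second array). The other tissues have 1 array each, so their spread is unknown.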

How the data were processed

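The deposited file lists an intensity for each probe on each array. Its linear scale was read from the values. Whether and how the authors scaled or centred the arrays, the scanner and the background correction are not given in the sources used here. Per the labels' protocols, 3 ng of RNA went through 2 rounds of amplification before reading in the Cy5 channel, which may change relative levels of low transcripts. Values of -9999 were taken as missing, a floor of 0.142 (pooled 5th percentile) was set before taking log2. Probes were named through the platform annotation (16865 with 1 symbol, 165 with several), and each gene had its brightest probe by mean over the 6 arrays. Differences of at least 4-fold were counted with no test. The pineal gland was also tested against total brain and against the ependyma with limma 3.58.1 in R 4.3.3 (eBayes after lmFit, a two-sided test, with Benjamini-Hochberg adjustment over all measured genes and a threshold of 0.05). The fit held all 6 arrays, and only the pineal gland pair left a residual degree of freedom (1), so lone arrays were assumed to vary like that pair. The moderated spread was the same for every gene (SE 0.73 and 0.72 on the log2 scale), so calls began at a log2 difference of 1.83 and 1.85. The number of arrays limits the precision.

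The receptor genes and the lists were chosen with earlier results of these data known. Genes were named by rule: Grin1, the brightest member of each family in each tissue, the largest differences in each comparison, the nearest to 4-fold, and the list genes with the largest changes. Other measured members were named after their values were seen, to account for them, as were Glra1, Glra2, Glra3, Grin2a, Gabra6, Htr2a, Gria1 and Drd4. Promoter motifs were searched after the values had been seen. Alternatives were quantile normalization, log2(value + 1), other filters, the median over probes, other probes and leaving out a pineal gland array.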

Additional observations from a re-analysis of the deposited data

Results flagged for a closer look

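Of 201 cases where a member was measured against total brain in a pair of structures, 14 had each array of 1 structure above total brain and each array of the other below it. They concern 4 genes. With 1 array in most structures, such opposite sides need only a small difference, and apart from the values named with limma below these differences were not tested. Adra2a had a log2 difference from total brain of -1.54 in the pineal gland and -3.72 in the subcommissural organ, against 0.43 in the subfornical organ and 0.69 in the ependyma. Between the pineal gland and the ependyma the difference itself was -2.24 (limma adjusted p = 0.012, lower on 2 of 2 pineal gland arrays). Gabrq was at 0.39 in the pineal gland, -1.43 in the subcommissural organ, -1.15 in the subfornical organ and -1.40 in the ependyma, and the pineal gland and ependyma differed by 1.79 (limma adjusted p = 0.06). Htr6 was at -0.66 in the pineal gland, 0.92 in the subcommissural organ, 0.23 in the subfornical organ and -0.32 in the ependyma. Gabra4 was at -0.41 in the pineal gland, -0.85 in the subcommissural organ, 0.33 in the subfornical organ and -0.38 in the ependyma.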

How the results depend on the processing

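With no filter, the subfornical organ differed 4-fold from total brain in 20 members in place of 13 and from the ependyma in 8 in place of 5, and limma called 15 in place of 23 (pineal gland against total brain) and 7 in place of 13 (pineal gland against ependyma). Quantile normalization left 15 limma calls against total brain. It also moved the all-gene median from -0.45 to 0.03 in the pineal gland and from -0.41 to -0.06 in the ependyma, with 10.9% of genes 4-fold lower and 8.79% higher in the gland, and 6.78% and 8.67% in the ependyma. Against total brain, quantile normalization left 18 members 4-fold lower in the pineal gland (10.9% of all genes) and 18 in the subcommissural organ (12.5%). It left 11 in the subfornical organ (8.09%) and 10 in the ependyma (6.78%). With log2(value + 1) these counts were 15 (9.17%), 15 (9.50%), 9 (5.51%) and 9 (4.85%) in that order. The main counts were 22, 20, 13 and 13. With log2(value + 1), limma called 8 members in pineal gland against ependyma, and 5 and 2 members were 4-fold different from the ependyma in the subcommissural and subfornical organs. With a filter at the 75th percentile these counts were 8, 5 and 3. With the median over probes, 7 members were 4-fold different and 8 were called by limma in pineal gland against ependyma, and 5 were 4-fold different in subcommissural organ against ependyma. Leaving out a pineal gland array gave 19 to 24 members against total brain and 13 to 13 against the ependyma; limma was not run there, since no residual degree of freedom is left. Another probe reversed Htr2c in pineal gland against ependyma (0.49) and in subfornical organ against ependyma (0.29), and Gria4 in subfornical organ against ependyma (-0.43), where its other 2 probes kept the direction of the brightest one (2.58 and 2.72). Of 1445 values of single genes under an alternative, 1176 moved by less than the spread or kept their call, 266 moved and 3 reversed. The cause was not tested. No paired analysis was possible because only the pineal gland carries replicate numbers.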
